A study of Homo sapiens with 6 samples.

Results

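The genes of the cytosolic ribosomal proteins were taken by name: protein-coding genes whose GENCODE 29 symbol is RPL or RPS with a number and at most 1 of the letters A, X or L, the stalk genes RPLP0 to RPLP2, and RPSA. There were 81 such genes, and 79 of them had a mean of at least 1 FPKM (fragments per kilobase of exon, scaled to the library's mapped fragments), 47 of the large and 32 of the small subunit, of 58302 genes in all. RPS10, with a mean of 1.10 FPKM, lay just inside that limit. The muscle paralogue RPL3L, with a mean of 0.151 FPKM, lay outside it, and RPL10L was listed at 0 in all 6 samples.

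RNA-seq was performed on SK-N-BE(2), a human neuroblastoma cell line, 72 h after siRNA transfection according to the labels, while the study's methods give a shorter time. 3 samples received a negative control siRNA (NC) and 3 an siRNA against Prp19 (siPrp19), the splicing factor encoded by PRPF19. The study selected 1 of its siRNAs against Prp19 by how well it silenced, so the siPrp19 samples stand for knockdown in 1 cell line, and the labels do not name the siRNA. Replicates 1, 2 and 3 were compared within pairs of the same number.

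The ribosome joins a large subunit, which forms peptide bonds and passes the new chain through an exit tunnel, to a small subunit, which reads the mRNA. Each ribosomal protein is incorporated in about equal numbers, and the surplus is degraded. The mRNAs of these proteins characteristically begin with a C followed by an unbroken run of pyrimidines, the 5' terminal oligopyrimidine (TOP) tract, through which mTORC1 and LARP1 control their translation.

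The TOP tract is the sequence feature that ties the family together, so the 30 bases around the annotated transcription start are shown for 8 genes that recur in the results: abundant members, a paralogue pair, genes among those with the highest or lowest mean changes, and tracts of different length. The bases are RefSeq sequence of GRCh38.p14, 5' to 3' on the gene's strand, 15 before the start and 15 from it, and capitals mark the run of C and T that begins at the start.
RPS27, chr1:153990747-153990776, plus strand: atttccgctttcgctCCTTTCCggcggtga
RPS27L, chr15:63157463-63157492, minus strand: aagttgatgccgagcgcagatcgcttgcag
RPL13A, chr19:49487593-49487622, plus strand: cgacaaaacctcctcCTTTTCCaagcggct
RPSA, chr3:39406705-39406734, plus strand: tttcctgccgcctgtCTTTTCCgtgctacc
RPL39, chrX:119791616-119791645, minus strand: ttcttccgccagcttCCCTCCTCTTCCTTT
RPLP0, chr12:120201097-120201126, minus strand: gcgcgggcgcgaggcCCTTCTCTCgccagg
RPL26, chr17:8383179-8383208, minus strand: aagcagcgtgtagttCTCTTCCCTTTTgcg
RPS12, chr6:132814554-132814583, plus strand: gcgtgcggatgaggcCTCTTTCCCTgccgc

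RPS27 opened with a run of 7 pyrimidines and its paralogue RPS27L with none. The run filled the 15 bases shown of RPL39. A start at C with a run of at least 5 pyrimidines was found in 46 of the 63 members that had an entry in the promoter table (73%), in 28 of 38 of the large and 18 of 25 of the small subunit. The same feature occurred in 7.67% of 9312 genes tested and in 5.14% of all 27305 promoters in the table. The 17 members without it were RPL27, RPL3, RPL10A, RPL19, RPL4, RPS4X, RPS15, RPL6, RPS28, RPS7, RPS26, RPL9, RPL32, RPL15, RPS29, RPL17 and RPS27L, and a shift of the annotated start by a base could change the result for a given gene.

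On both strands of the window from 250 bases before to 50 after the start, 6 short motifs were searched. CCGGAAG (the letters of an ETS-type site) was in 36.5% of the members' promoters, against 23% of the tested genes' and 12.2% of all. TATAAA was in 7.94%, against 7.83% of tested and 14% of all. AAGATGG was in 12.7%, against 9.89% and 7.11%. GGGCGG, the letters of a GC box, was in 58.7%, against 78.2% and 48.3%, and CACGTG, the letters of an E-box, in 6.35%, against 13.1% and 8.77%. The other motif, a CG-rich palindrome of 10 bases, was in 4 of the 63 (6.35%), against 1.07% of tested and 0.505% of all promoters. Members' promoters thus held CCGGAAG in a larger share, and GGGCGG and CACGTG in a smaller share, than tested genes did, as a description without a test.

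Reads assigned to genes, recovered from the FPKM values, numbered 19058781 to 21943936 in the NC and 22273026 to 24181789 in the siPrp19 samples. PRPF19 was at 53.1, 53.1 and 64.9 FPKM in NC and at 21.8, 28.5 and 33.6 FPKM in siPrp19, a log2 change of -1.04 ± 0.19 (SE, limma), so every knockdown sample lay below every control sample. With 3 samples against 3 the exact permutation test, two-sided, gave p = 0.1, the smallest it can give, and no gene of 14462 tested passed a Benjamini-Hochberg adjusted p of 0.05 in limma without the pairing (225 had an unadjusted p under 0.05). The study, with DESeq2, reported significantly regulated genes after the knockdown. The reason for the lack of calls in this fit was not tested, and some other fits, given in the last section, did call genes. All 10 markers of neuroblastoma cells were expressed, with a summed level of 2130 to 2263 FPKM in NC and 2010 to 2606 FPKM in siPrp19. Of 8 markers of other cells, PTPRC, PECAM1, VWF and ALB had means of at most 0.251 FPKM, while LUM and COL1A1, genes of the fibroblast matrix, had means of 49.9 and 40.3 FPKM, and the 8 summed to 91.5 to 110 FPKM in NC and 84.0 to 109 FPKM in siPrp19. Replicate 3 of both groups stood apart: DBH, the noradrenaline-forming enzyme, was at 3.49 FPKM in NC replicate 3 and 3.94 FPKM in siPrp19 replicate 3, against 26.7 to 44.2 FPKM in the other 4 samples.

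The share of the transcriptome taken by ribosomal protein mRNAs differed between siPrp19 and NC by less than the spread between replicates. Their part of the summed FPKM was 10.2%, 10.8% and 7.41% in NC and 10.3%, 10.6% and 7.56% in siPrp19, in the order of the replicate numbers as everywhere below. The means were 9.48% ± 1.82 and 9.49% ± 1.68 (SD, n = 3 each), and the differences within pairs were 0.117, -0.234 and 0.157 percentage points. Replicate 3 was the lowest in both groups, and the gap between replicates was larger than any difference between paired samples. In recovered reads, which give longer genes more weight, the share was 7.82%, 8.20% and 6.11% in NC and 7.95%, 8.06% and 6.33% in siPrp19. RNA-seq shares are relative, so a lower share cannot tell fewer ribosomal protein transcripts per cell from more of the other transcripts.

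**Figure D1:**
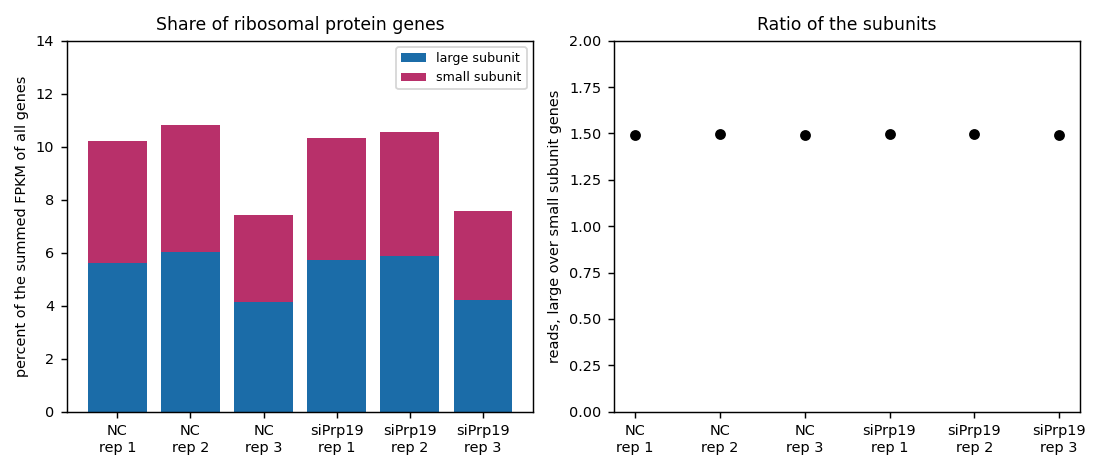
Left, the percent of the summed FPKM of all genes that fell on large and small subunit genes in each sample, stacked from 0; right, the reads on large subunit genes over those on small subunit genes. The total stood between 7.41% and 10.8%, was lowest in replicate 3 of both groups, and the ratio was 1.491 to 1.499 throughout.

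The large subunit genes gave 5.63%, 6.01% and 4.12% of the FPKM in NC and 5.74%, 5.87% and 4.22% in siPrp19. The small subunit genes gave 4.601%, 4.79% and 3.28% in NC and 4.605%, 4.70% and 3.35% in siPrp19. The 2 subunits thus moved together from sample to sample. Their ratio in reads was 1.494, 1.499 and 1.491 in NC and 1.496, 1.495 and 1.494 in siPrp19, with means of 1.495 ± 0.0039 and 1.495 ± 0.0012 (SD). The median level of a large subunit gene over that of a small subunit gene was 0.913, 0.899 and 0.831 in NC and 0.810, 0.830 and 0.839 in siPrp19. That ratio of medians was lower in siPrp19 in pairs 1 and 2 and higher in pair 3.

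Nearly all members were abundant. The mean level was over 100 FPKM for 68 of the 79, between 100 and 1000 FPKM for 67, and 71 lay among the highest 5% of the tested genes. RPS2, of the mRNA entry channel, was the highest, at 1305, 1448 and 953 FPKM in NC and 1339, 1423 and 1000 FPKM in siPrp19 (NC 1235 ± 255, siPrp19 1254 ± 224, SD). RPL8, a protein near the peptidyl transferase centre, was at 907, 1077 and 801 FPKM in NC and 984, 1139 and 809 FPKM in siPrp19. Both were lowest in replicate 3 of either group, and the groups overlapped. RPL13A, known for its release from the ribosome during inflammation, was at 1009, 1145 and 675 FPKM in NC and 1054, 1067 and 759 FPKM in siPrp19. RPS27 was at 1011, 983 and 611 FPKM in NC and 896, 1004 and 651 FPKM in siPrp19. RPS2 was above the other 3 genes in every sample, while the means of RPL8, RPL13A and RPS27 differed by less than the spread between samples.

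At the low end stood 8 genes under 40 FPKM. RPS10 was at 1.03, 1.49 and 1.17 FPKM in NC and 1.10, 1.11 and 0.687 FPKM in siPrp19. RPS27L was at 2.80, 2.78 and 2.83 FPKM in NC and 2.47, 2.57 and 2.96 FPKM in siPrp19. RPL36A was at 2.42, 3.31 and 3.57 FPKM in NC and 2.48, 2.98 and 3.37 FPKM in siPrp19. The groups overlapped for all 3 of these genes. RPL17 was at 7.25, 6.63 and 6.499 FPKM in NC and 5.997, 6.12 and 4.66 FPKM in siPrp19, and RPL26, RPL39L, RPS15A and RPS29 had means of 11.2, 21.98, 24.4 and 35.5 FPKM.

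Some of these genes share sequence with other annotated genes. In GENCODE 29, 7 members had at least 50% of the shortest of their best-ranked transcripts (the principal transcript) covered by exons of another gene, on either strand. They included RPL17 (91.0%, readthrough gene RPL17-C18orf32), RPL36A (77.6%, RPL36A-HNRNPH2), RPS10 (77.0%, RPS10-NUDT3), RPL26 (59.0%, AC135178.2), RPL38 (57.8%, MGC16275) and RPL10 (55.9%, DNASE1L1). Their median level was 11.2 FPKM, against 272 FPKM for the other 72, and 4 of the 5 lowest members were among them, whereas RPL10 and RPL38 were over 100 FPKM. The 3 readthrough genes had means of at most 0.0317 FPKM. A counter such as featureCounts leaves out, by default, reads that overlap 2 genes, but the setting used is not given in the sources used here, and the part of the overlap in the low values was not tested. The levels of these 7 genes are therefore uncertain.

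The FPKM values divided by the length of all annotated exons of a gene, 767 to 9845 bases among the members, which was a median of 3.27 times the principal transcript. Across the 79 genes the level was lower where this length was greater (Spearman's rho = -0.495, a description, since the length enters the FPKM and genes are not independent replicates). Scaled to the principal transcript instead, RPS3, which also acts in DNA repair, moved from rank 12 to rank 1, RPS24 from rank 48 to rank 4 and RPS29 from rank 72 to rank 32, while the 2 rankings had a rho of 0.79. This scale was chosen after the values were seen and changes no comparison between samples. Pseudogenes of any annotated type also held reads: 1132 genes named as pseudogenes of 76 members had a summed level equal to 21.8% of the members' summed FPKM, and reads equal to 3.98% of the members' reads. In FPKM, RPS28P7 (1261 against 199), RPL9P9 (765 against 117) and RPL39P3 (341 against 206) were above their parents RPS28, RPL9 and RPL39. RPS7P1 (245 against 196 for RPS7), RPL26P19 (14.1 against 11.2 for RPL26) and RPS10P3 (13.0 against 1.10 for RPS10) were as well. Scaled to the principal transcript, RPL9 (780), RPL39 (1102), RPS7 (1390) and RPL26 (48.0) exceeded these copies' FPKM. RPS28 (317) and RPS10 (4.02) did not. Mean reads of the pseudogenes of RPS28, RPL9 and RPL39 were 5592, 11761.5 and 1146.5. The parents had 5944 to 10800, 8873 to 14598 and 7269 to 10433 recovered reads a sample. Reads of such near-identical copies may be split between parent and copy.

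**Figure D2:**
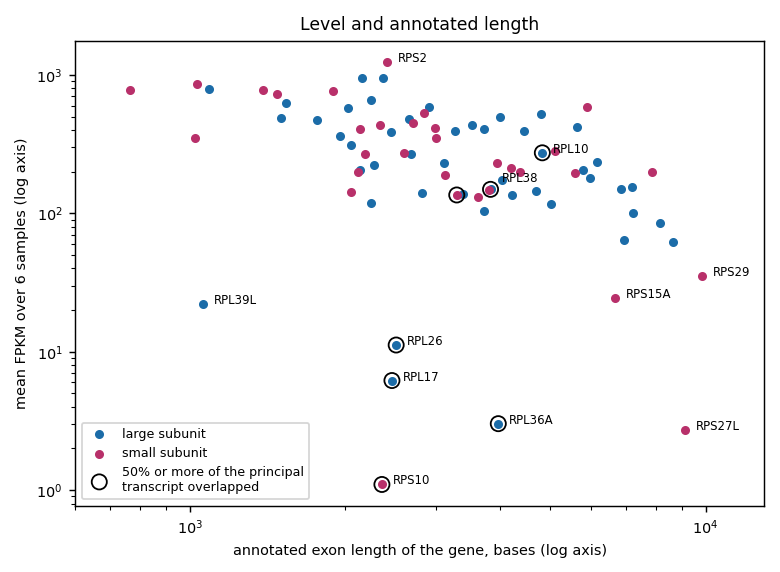
Mean FPKM over 6 samples against the annotated exon length of each of the 79 genes, both on log axes; black rings mark the 7 genes with at least 50% of the principal transcript overlapped by another gene. RPL26, RPL17, RPL36A and RPS10 lie under 12 FPKM within the rings, and RPL10 and RPL38 over 100 FPKM.

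The members shared features of their genes. They lay on 21 chromosomes, 12 of them on chromosome 19, 8 on chromosome 3 and 4 on chromosome X. Small nucleolar RNAs, which guide the modification of rRNA, lay within 28 of the 79 genes (35.4%, 60 snoRNAs), against 1.66% of 11297 protein-coding genes tested.

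Between siPrp19 and NC no member passed an adjusted p of 0.05 in limma, with or without the replicate pairing, as was true of all genes (0% of 14462 called in either fit). Without the pairing 0 of 79 had an unadjusted p under 0.05, against 1.56% of all genes, and with it 2 had (2.53%), RPL17 and RPL23, against 15.7% of all genes (8.77% lower and 6.89% higher). The smallest adjusted p among members was 0.25 with the pairing. With the pairing the 95% interval of the log2 change lay within 1.2-fold either way for 72 of 79 members, gene by gene and unadjusted, with a median half-width of 0.12 on the log2 scale. No share over other genes of similar level is given beside this count, so it is not read as particular to the members. Without it the median half-width was 0.51 and no interval lay within 1.2-fold.

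The median log2 change of the members, siPrp19 minus NC, was -0.02 in pair 1, -0.05 in pair 2 and 0.04 in pair 3. Of the 79, 49 were lower in pair 1 and 62 in pair 2, whereas 55 were higher in pair 3. Over all genes tested, 54.3%, 50.8% and 48.3% were lower in pairs 1, 2 and 3. Of the 308 genes over 100 FPKM, members included, 184 were lower in pair 1, 191 were lower in pair 2 and 202 were higher in pair 3, with medians of -0.03, -0.03 and 0.04. The sign of the median thus differed between pairs, in the members and in abundant genes alike. Averaged over pairs, 41 were lower and 38 higher, and the median was -0.008 (all genes -0.004). The large subunit had medians of -0.01, -0.05 and 0.05 and the small subunit of -0.03, -0.03 and 0.04. The difference between the subunits, large minus small, was 0.02, -0.02 and 0.01, under the spread between the pairs.

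Averaged changes were narrow. Their middle 50% spanned 0.079 on the log2 scale, against 0.21 for all genes tested and 0.13 for the genes over 100 FPKM, of which 68 were members. A mean change over 1.2-fold occurred in 3 members (3.80%: RPL26, RPL17 and RPS10), in 16.4% of all genes and in 2.92% of genes over 100 FPKM. The 3 were among the 7 overlapped and 5 lowest genes described above.

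**Figure D3:**
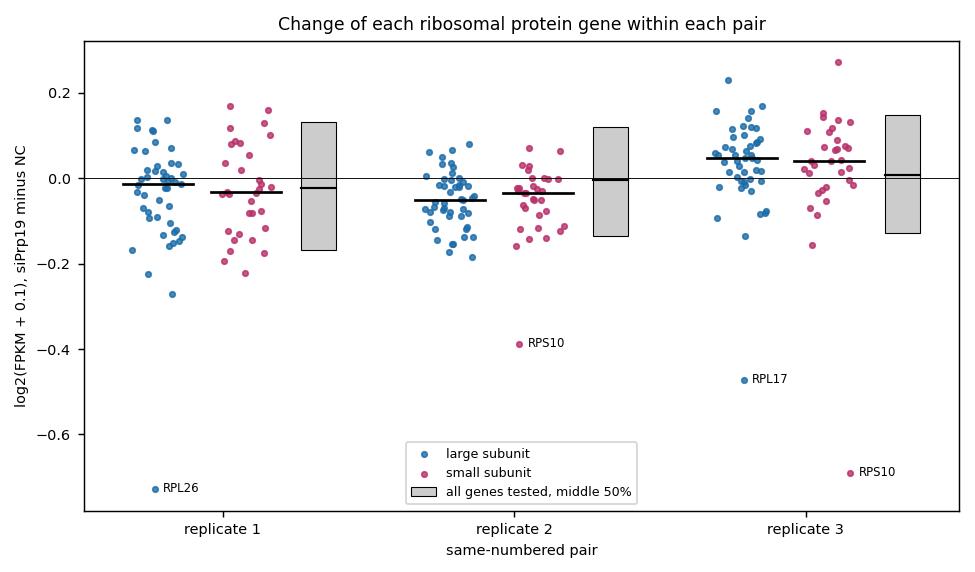
Difference of log2(FPKM + 0.1), siPrp19 minus NC, of each ribosomal protein gene within the 3 same-numbered pairs; blue points are large and red points small subunit genes, black lines their medians, and grey boxes the middle 50% of all genes tested with their median. Most points lie within 0.2 of 0, the medians are below 0 in pairs 1 and 2 and above 0 in pair 3, and genes beyond 0.3 are named.

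Lower values in all 3 pairs occurred in 16 members (20.3%), against 21.3% of all genes, a share near that of the background. Higher values in all 3 pairs occurred in 7 (8.86%), against 19.2%. The 16 included RPS12, RPL10A, RPS6, RPS21, RPL10, RPL39, RPS7, RPS27A, RPL23, RPL22, RPL37, RPS15A, RPL39L, RPL26 and RPL17. The 7 were RPL8, RPLP0, RPL11, RPL5, RPS13, RPSA and RPL9. Without replicate 3, 39 members were lower and 7 higher in both remaining pairs, against 34.4% and 29.2% of all genes. The NC and siPrp19 samples did not overlap for 1 member, RPL17 (2.84% of all genes had all siPrp19 below all NC), and no member had all siPrp19 above all NC (2.77% of all genes).

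RPL17, which lies at the peptide exit tunnel (chr18:49488453-49492523, GRCh38, GENCODE 29), had the smallest p with the pairing. Its log2 changes within pairs were -0.27, -0.11 and -0.47, with a mean of -0.28 (95% interval -0.51 to -0.06, unadjusted p = 0.0217, adjusted p = 0.25, limma with the pairing). The exact permutation test gave p = 0.1, the smallest possible. It rested on 285 to 390 reads a sample, and the overlapped part of the gene was not counted apart from the rest.

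RPL26, also of the exit tunnel and a regulator of p53 translation, was at 15.2, 11.6 and 10.6 FPKM in NC and 9.15, 10.7 and 9.91 FPKM in siPrp19. NC replicate 1 stood above the others and the groups overlapped. Its changes were -0.73, -0.12 and -0.09, with a mean of -0.31 (95% interval -0.68 to 0.05, adjusted p = 0.36, limma with the pairing). A precision-weighted fit of recovered reads with the pairing (limma voom) called it, with a log2 change of -0.33 and adjusted p = 0.0372, the only member of 79 so called (1.27%, against 7.01% of 14432 genes). RPL26 is 1 of 18 members whose FPKM gave no whole reads at the annotated length, so those reads are estimates. RPS10, whose loss causes Diamond-Blackfan anaemia, had changes of 0.08, -0.39 and -0.69, from 40 to 62 estimated reads a sample.

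The other exit tunnel genes, RPL19, RPL23A, RPL31, RPL35 and RPL39, had mean changes of -0.07 to 0.04. RPL23, whose protein also binds MDM2, was at 192, 215 and 152 FPKM in NC and 173, 198 and 145 FPKM in siPrp19, lower by 0.15, 0.12 and 0.08 within the pairs on the log2 scale. The groups overlapped, but each siPrp19 sample lay below its paired NC sample (mean -0.12, 95% interval -0.22 to -0.01, unadjusted p = 0.0325, adjusted p = 0.28, limma with the pairing). The exact permutation test, which leaves out the pairs, gave p = 0.6. RPS15A was at 26.2, 28.3 and 21.6 FPKM in NC and 22.9, 28.3 and 19.4 FPKM in siPrp19, a mean change of -0.12 (adjusted p = 0.39, limma with the pairing).

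The stalk recruits elongation factors. Its base RPLP0 was at 524, 541 and 373 FPKM in NC and 550, 567 and 416 FPKM in siPrp19, higher in each pair by 0.07, 0.07 and 0.16 (mean 0.10, 95% interval -0.01 to 0.20, adjusted p = 0.34, limma with the pairing). RPLP1 was at 432, 443 and 329 FPKM in NC and 392, 436 and 333 FPKM in siPrp19. RPLP2 was at 394, 421 and 290 FPKM in NC and 353, 402 and 302 FPKM in siPrp19. RPLP1 and RPLP2, whose proteins bind RPLP0 as pairs, had mean changes of -0.05 and -0.06, and no stalk gene passed the test.

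The 5S particle of RPL5, RPL11 and 5S rRNA binds MDM2 when ribosome assembly fails. RPL5 was at 405, 494 and 313 FPKM in NC and 405, 494 and 313 FPKM in siPrp19, with a mean log2 change of 0.001. RPL11 was at 447, 580 and 391 FPKM in NC and 483, 583 and 403 FPKM in siPrp19, a mean change of 0.05. Paired samples of RPL5 were closer to each other than any 2 replicates of a group. Both intervals with the pairing lay within 1.2-fold.

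In the small subunit, RPSA, which also serves as a laminin receptor precursor, was at 228, 261 and 187 FPKM in NC and 255, 266 and 202 FPKM in siPrp19. It was higher in each pair, by 0.16, 0.03 and 0.11 (mean 0.10, 95% interval -0.01 to 0.21, adjusted p = 0.35, limma with the pairing). RPS23, of the decoding centre, had the highest mean change of all members, 0.11, but its paired changes were 0.17, -0.12 and 0.27. It was at 184, 259 and 174 FPKM in NC and 207, 238 and 211 FPKM in siPrp19. The groups overlapped for both genes. The mRNA entry and decoding genes RPS2, RPS3, RPS15 and RPS23 had mean changes of -0.06 to 0.11, and the mRNA exit genes RPS14, RPS26 and RPS28 of -0.02 to 0.05. The 9 genes listed for Diamond-Blackfan anaemia, an inherited failure of red cell formation, had mean changes of -0.33 (RPS10) to 0.05 (RPL11), with a median of -0.02.

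Paralogue pairs differed most in level. RPL39 was at 217, 247 and 172 FPKM in NC and 198, 234 and 171 FPKM in siPrp19. Its paralogue RPL39L, best known from testis and tumours, was at 20.8, 19.1 and 26.8 FPKM in NC and 20.7, 18.1 and 26.4 FPKM in siPrp19. RPL39 was lowest in replicate 3 of each group and RPL39L highest there. RPL22 was at 139, 181 and 129 FPKM in NC and 137, 172 and 118 FPKM in siPrp19, and RPL22L1 at 15.97, 24.4 and 10.2 FPKM in NC and 19.1, 26.2 and 10.7 FPKM in siPrp19. RPL22 had a mean change of -0.08 and RPL22L1 of 0.15, neither past the test. RPL36AL, at 139, 157 and 156 FPKM in NC and 128, 156 and 153 FPKM in siPrp19, was far above the overlapped RPL36A. RPL3 was at 528, 630 and 400 FPKM in NC and 527, 607 and 430 FPKM in siPrp19. RPL10 was at 324, 318 and 207 FPKM in NC and 288, 301 and 206 FPKM in siPrp19, lower in each pair with a mean change of -0.08 and overlapping groups.

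The members' levels differed more between replicate numbers than between siPrp19 and NC. Replicate 3 was below replicates 1 and 2 in both groups for 72 of 79 members (91.1%), against 27.7% of all genes, and above them for 3 (3.80%), against 30.6%. Replicate 2 was the highest in both groups for 63 (79.7%), against 29.4%. Relative to the mean of replicates 1 and 2, replicate 3 had a median log2 difference of -0.49 in NC and -0.40 in siPrp19 over the members, of 0.01 and 0.02 over all genes, and of -0.34 and -0.25 over genes over 100 FPKM. The NC range was widest for RPL13A, RPL29 and RPL10A. RPL29 was at 343, 368 and 217 FPKM in NC and 344, 360 and 229 FPKM in siPrp19. RPL10A was at 507, 621 and 364 FPKM in NC and 502, 583 and 359 FPKM in siPrp19.

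**Figure D4:**
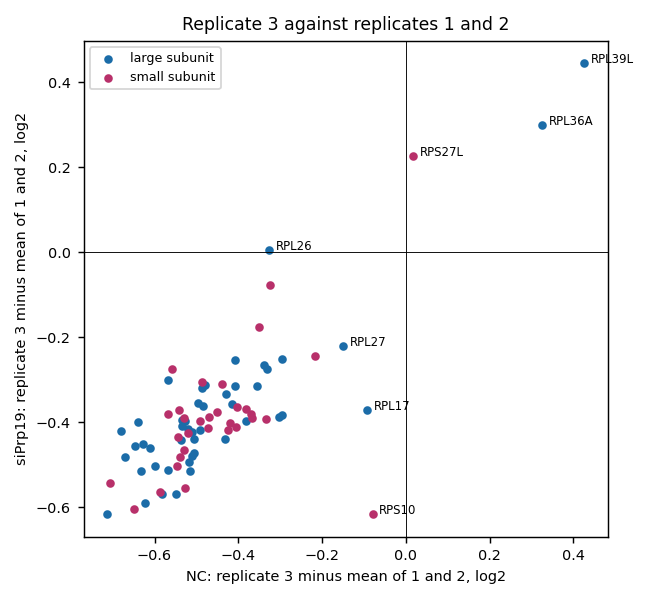
Log2 difference of replicate 3 from the mean of replicates 1 and 2 in NC (x) and in siPrp19 (y) for each of the 79 genes; blue points are large and red points small subunit genes. Most points lie between -0.7 and -0.2 on both axes, while RPL39L and RPL36A lie above 0.2 on both.

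The 7 members whose replicate 3 was not the lowest in both groups were RPL27, RPS23, RPL39L, RPL26, RPL36A, RPS27L and RPS10. Of these RPL39L, RPL36A and RPS27L had their highest values in replicate 3 of both groups, with differences of 0.43 and 0.44 for RPL39L and 0.32 and 0.30 for RPL36A in NC and siPrp19. For RPS27L, a paralogue induced by p53, the differences were 0.02 and 0.23. DBH was also lower in replicate 3, as given above, and the part of any difference between the cultures in the members' levels was not tested.

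Genes around the ribosome were taken as lists. None of their genes passed an adjusted p of 0.05, with or without the pairing, and counts below are of unadjusted p under 0.05 with the pairing, against 8.77% lower and 6.89% higher of all genes. Of 15 tested translation factors and other TOP mRNAs, 1 was lower and 3 higher, with a median change of 0.02. EIF3F, a subunit of initiation factor 3, was at 18.2, 20.5 and 16.6 FPKM in NC and 21.9, 24.7 and 18.2 FPKM in siPrp19, a mean change of 0.22. TPT1, a growth-related protein, had the lowest mean change, -0.16. EEF1G was listed at 0 in all samples, and whether the counting or the cells gave that value was not tested. The list was also low in replicate 3, with median differences of -0.39 in NC and -0.41 in siPrp19.

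Of 32 ribosome assembly factors, 1 was lower and 2 higher, with a median of -0.02. PNO1, needed for maturation of the small subunit, was at 6.58, 6.14 and 11.8 FPKM in NC and 4.05, 5.04 and 9.68 FPKM in siPrp19, a mean change of -0.42 and lower in each pair. RRP9, of the box C/D snoRNP that processes rRNA, had the highest mean change, 0.16. In contrast to the ribosomal proteins, the assembly factors were higher in replicate 3, with median differences of 0.24 in NC and 0.22 in siPrp19. Of 14 genes of RNA polymerase I and its factors, 1 was lower and 1 higher, from TAF1B at -0.21 to TAF1C at 0.18, with a median of -0.01.

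Of 13 genes of mTORC1, 4E-BP and LARP1, 1 was lower and 1 higher, from TSC1 at -0.18 to MLST8 at 0.16, with a median of -0.06. Of 12 genes of MDM2 and the p53 response, 3 were lower (GDF15, CDKN1A at -0.56 and MDM2 at -0.36) and 1 higher (BBC3), with a median of -0.13, against -0.004 over all genes. GDF15, a secreted stress factor, was at 1.56, 4.57 and 6.54 FPKM in NC and 0.506, 2.60 and 6.66 FPKM in siPrp19, so its mean change of -0.74 came from pairs 1 and 2. BBC3, which encodes the death protein PUMA, was at 2.60, 2.54 and 1.73 FPKM in NC and 3.54, 3.68 and 2.37 FPKM in siPrp19, a mean change of 0.46 and higher in each pair. Among 7 ribosomal proteins and paralogues outside the name rule, none had an unadjusted p under 0.05. RPL7L1 had the lowest mean change, -0.06.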

How the data were processed

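The authors transfected the cells, made libraries with the NEBNext Ultra RNA kit and deposited 1 table of FPKM per sample. The submitters' processing notes name HISAT2 2.0.5 and featureCounts 1.5.0-p3; DESeq2 was the authors' own test. Neither strand nor annotation release is stated, so overlapping and antisense genes cannot be told apart. The deposited FPKM times GENCODE 29 exon length gave whole reads, within 0.05, for 56487 of 58039 matched genes (97.3%) and 61 of 79 members.

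Genes averaging 1 FPKM or more were tested on log2(FPKM + 0.1) with limma 3.58.1 (R 4.3.3), eBayes with trend, and Benjamini-Hochberg adjustment over all 14462 genes. Fold changes on this scale understate those of low genes. The code of the fit was checked on simulated data in which every gene had the same added spread between samples. Recovery of changed genes was required only of the fit with the pairing. The check therefore does not show the power of the fit without it. Replicate numbers came from the labels. Same-numbered samples deviated together (r = 0.381, 0.568 and 0.639 across genes), so the pairing was also fitted, as a replicate block. The study calls its replicates biological, but no label names separate cultures, so p-values measure only the spread between these samples.

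Members and lists were chosen with earlier results of these data known. Genes named were PRPF19, the stalk genes, RPSA, RPL5, RPL11, the paralogue pairs, the 4 highest and 4 lowest by level and by mean change, the 4 with the smallest p with the pairing, the 3 with the widest NC range, any member past the threshold, and the extremes of each other list; others were named after their values were seen, among them the genes named for overlap, annotated length, pseudogenes or replicate 3. Alternatives covered the pseudocount, filter, TPM scaling, quantile normalization, eBayes settings, voom on recovered reads, the pairing and samples left out. Read counts cover counting error only. Results for some genes are not reported here.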

Additional observations from a re-analysis of the deposited data

How the results depend on the processing

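Counts of members with an unadjusted p under 0.05 were 0 without the pairing (1.56% of all genes) and 2 with the replicate block (15.7% of all genes). They were 6 with limma voom on recovered reads and the block, 3 with the block and a mean of at least 5 FPKM, and 3 with the block on TPM. No share over all genes is given for these last fits, so their counts cannot be read as a gain in the members. Calls at an adjusted p of 0.05 over all genes, 0 in the fit reported, numbered 1 with robust eBayes without trend, 1012 with voom and the block (1 member, RPL26) and 124 with the block and a mean of at least 5 FPKM (no member). PRPF19 passed with voom and the block (log2 change -1.0417, adjusted p = 1.38e-11) and with the block and at least 5 FPKM (-1.0425, adjusted p = 0.0176). Members lower in all 3 pairs fell from 16 to 10 under quantile normalization. Leaving out 1 sample moved the median log2 change of the members between -0.1744 (without NC replicate 3) and 0.1299 (without siPrp19 replicate 3), and it was 0.1118 without NC replicate 2 and -0.1040 without siPrp19 replicate 2. The range was -0.1744 to 0.1293 for the large and -0.1767 to 0.1310 for the small subunit. These fits are unpaired, and those 4 samples are the lowest and highest of their groups for most members. Leaving out both samples of a number, chosen after seeing the data, gave 0.0058, 0.0014 and -0.0323 without replicates 1, 2 and 3, with no member called. The fit with the block and at least 5 FPKM and the fit on TPM with the block were also added after seeing the data. In limma on log2 FPKM at a mean of at least 1 FPKM, the block left the calls at an adjusted p of 0.05 at 0 over all genes. At a mean of at least 5 FPKM they numbered 0 without the block and 124 with it. Depth limits RPS10, RPL17, RPL36A, RPS27L and RPL39L, with under 700 reads a sample.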
